A study of Mus musculus with 9 samples.

Results

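Donor T cells taken from the spleen 7 days after an allogeneic transplant were compared, gene by gene, with resting T cells from the spleen of healthy mice of the donor strain. The comparison was chosen by the groups named in the labels and used 6 of the 9 RNA sequencing libraries of the study, 3 allogeneic and 3 naive. The naive libraries were made from T cells of healthy C57BL/6 mice, which carry the H-2b histocompatibility genes and the CD45.2 form of the leukocyte antigen CD45, and these mice were neither irradiated nor transplanted (the sources used here give no age for them). The allogeneic libraries were made from T cells of C57BL/6 female donors aged 8 to 12 weeks that had been injected into CByJ.SJL(B6)-Ptprca/J recipients, which carry H-2d and the CD45.1 form. Those recipients were irradiated with 8 Gy and received 1000000 T cells together with 5000000 marrow cells depleted of T cells. The remaining 3 libraries came from a syngeneic transplant of C57BL/6 T cells into B6.SJL-Ptprca Pepcb/BoyJ mice, which are H-2b and CD45.1, after 9.5 Gy and with 8500000 T cells and the same number of marrow cells. This transplant was also sampled at day 7, and the sources used here give the same age range of 8 to 12 weeks for it. The syngeneic libraries stood in the same model and are used here only to show where a change against naive differed between the transplants. Cells of all groups were enriched for T cells and sorted as live CD3+ CD45.2+ spleen cells, and each transplant library pooled 2 to 4 recipients.

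A T cell that meets a foreign histocompatibility molecule through its receptor leaves its resting state, enters the cell cycle and gives rise to effector cells that kill or secrete cytokines, and this response of donor T cells against recipient tissue drives graft-versus-host disease. Resting T cells recirculate through lymph nodes by means of the chemokine receptor CCR7, and the transcription factors TCF1 and LEF1 hold that state. The spleen is one of the organs in which transferred T cells first meet recipient antigen. Donor marrow and donor T cells were both CD45.2, so the sort did not separate the injected T cells from cells that had grown out of the marrow. Transplanted cells also differed from naive cells in irradiation of the host, the T-cell dose and the time spent in it, and against the naive group these cannot be told apart from the histocompatibility difference.

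Total counts per library ranged from 103953932 to 176678189 in the allogeneic group and from 113382060 to 138312206 in the naive group. Values below are in CPM, the count of a gene scaled to a common library total after TMM (trimmed mean of M-values) adjustment. Of 29229 genes, 541 had no count in any library and 19609 passed the filter on low counts and were tested. Counts assigned to the ribosomal RNA locus took 17.2% of allogeneic library 1 but 9.06% and 7.87% of allogeneic libraries 2 and 3, and between 15.8% and 18.8% of the naive libraries. Allogeneic library 1 stood apart from the other two by this measure, and the counts of genes called are given with and without it. Nothing in the labels says that the 3 libraries of a group came from separate transplants beyond their pools of recipients, so the tests measure the spread between these libraries.

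Most of the genes tested differed between the allogeneic and naive libraries. edgeR's quasi-likelihood test with Benjamini-Hochberg adjustment called 11315 of 19609 genes (57.7%) between allogeneic and naive T cells at an adjusted p under 0.05. Expression was higher in allogeneic cells for 6229 genes (31.8%) and lower for 5086 (25.9%). Among these, 3339 genes (17.0%) were at least 2-fold higher and 2487 (12.7%) at least 2-fold lower. The asymmetry grew with the size of the difference: 1435 genes were at least 8-fold higher against 385 lower, and 542 were at least 32-fold higher against 83 lower. Large rises included immunoglobulin variable segments (median log2 fold change 7.67) and neutrophil genes (8.13), described below. Their part in the asymmetry was not counted. Genes near 0 in naive libraries could pass the filter on low counts only through a transplant group. Their rises, and counts that include them, were therefore partly set in advance. The libraries of the groups did not overlap for 12868 genes (65.6%). Without allogeneic library 1 the test called 10558 genes, 5966 higher and 4592 lower. The median log2 fold change over all genes tested was -0.0102, so a list's median can be read against a value near 0, and its counts against 31.8% higher and 25.9% lower. In bulk RNA, fewer cells of a type and less RNA per cell cannot be told apart, and this holds for every difference given.

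**Figure D1:**
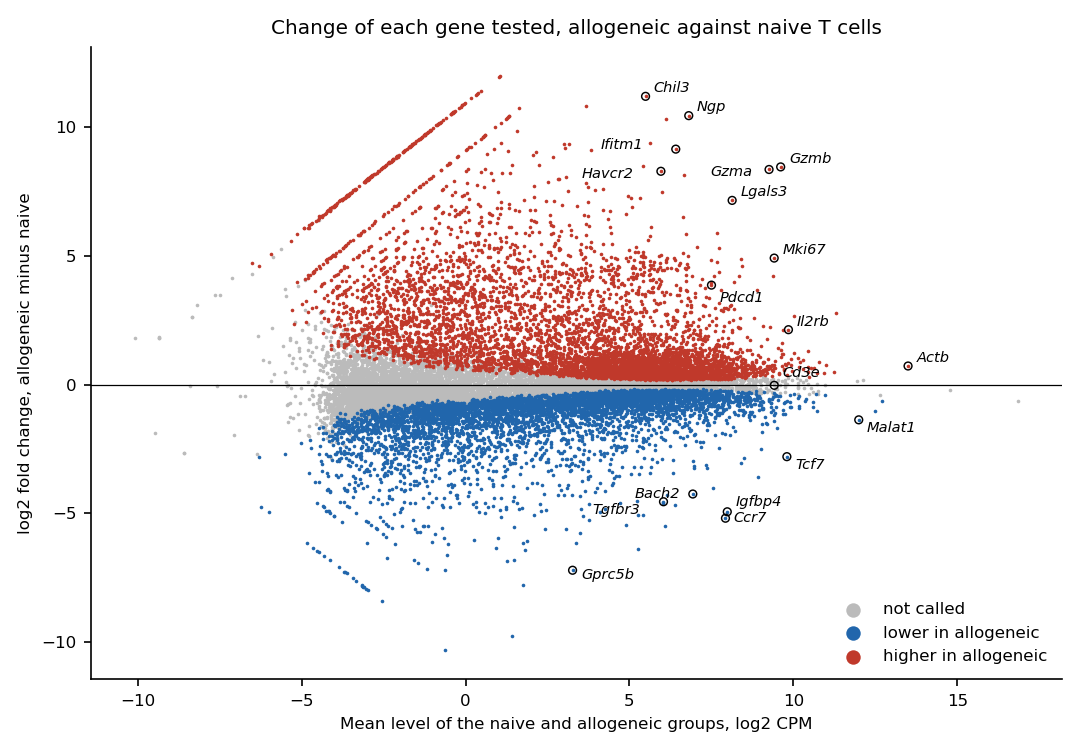
Log2 fold change of allogeneic over naive libraries (vertical axis) against the average expression in log2 CPM (horizontal axis) for the 19609 genes tested, with genes called by edgeR coloured by direction and some named genes labelled. The rises reach further from 0 than the falls: 542 genes were at least 32-fold higher and 83 at least 32-fold lower. Immunoglobulin variable segments and neutrophil genes are among the large rises.

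Markers that define T cells were abundant in both groups. Summed over 12 identity genes the libraries held 5680 to 6190 CPM in allogeneic cells and 5190 to 6020 CPM in naive cells, so the markers of the sorted cell type were present in both. Cd3e, which encodes a signalling chain of the receptor complex, lay at 691, 656 and 680 CPM in allogeneic and 706, 648 and 717 CPM in naive libraries. Its groups overlapped and the gene was not called (log2 fold change -0.03 ± 0.12 SE, adjusted p = 0.825, edgeR). Only Thy1 rose, from 886 ± 96 to 1440 ± 44 CPM (SD, n = 3), and only Cd5, a negative regulator of receptor signalling, fell, from 377 ± 24 to 260 ± 5 CPM, among these 12 genes. Such small counts depended on single libraries: 2 genes fell without allogeneic library 1 or without syngeneic library 1, 2 rose without syngeneic library 3, and 4 fell when library sizes alone were used for scaling. Coreceptors divide helper from cytotoxic T cells, and the log2 ratio of Cd8a to Cd4 was -0.484, 0.054 and 0.072 in allogeneic and -0.084, -0.102 and -0.047 in naive libraries (difference of means -0.0416, two-sided exact permutation p = 1.0, n = 3 and 3, smallest possible p 0.1). Allogeneic library 1 alone lay below the naive libraries, and without it the difference was 0.141. Runx3, a transcription factor of cytotoxic T cells, rose by 0.79 ± 0.12 on the log2 scale, and Runx1 fell by 0.64 ± 0.10.

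Genes of the naive, quiescent state fell together. Of 26 such genes, 23 fell and none rose, with a median log2 fold change of -1.84, and 19 of them fell at least 2-fold. Ccr7, the lymph node homing receptor, lay at 476, 432 and 512 CPM in naive and 10.7, 13.7 and 14.5 CPM in allogeneic libraries. Its groups were far apart, with a log2 fold change of -5.19 ± 0.18 (SE, adjusted p = 3.05e-09, edgeR). Tcf7, the gene of TCF1, dropped from a mean of 1560 to 224 CPM and Lef1 from 870 to 153 CPM, both without overlap between libraries. Igfbp4 (ENSMUSG00000017493, chromosome 11, 99041244 to 99054392 in GRCm38), which encodes a binding protein for insulin-like growth factors, was at 482, 493 and 494 CPM in naive and 13, 16.1 and 18.8 CPM in allogeneic libraries. Dapl1 and Rapgef4 fell by 5.08 ± 0.22 and 4.60 ± 0.25 on the log2 scale, each to between 1 and 3 CPM. The fall was smaller for the interleukin-7 receptor gene Il7r (408 to 238 CPM) and for Klf2 (651 to 376 CPM), a factor that keeps T cells quiescent and in circulation. The other 3 members were not called.

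Cytotoxic effector genes rose almost without exception. Of 22 genes, 21 rose and none fell, with a median log2 fold change of 2.51, and 19 rose at least 2-fold. Gzmb, the granzyme that activates caspases in target cells, was measured at 3.38, 4.32 and 5.79 CPM in naive and 1640, 1470 and 1590 CPM in allogeneic libraries. No naive library came near an allogeneic one, with a log2 fold change of 8.45 ± 0.27 (SE, adjusted p = 1.65e-09, edgeR). Gzma reached 1430, 1260 and 974 CPM from 2.44, 4.01 and 4.83 CPM, a log2 fold change of 8.35 ± 0.32. Gzmk went from 1.88 to 92.8 CPM. Prf1, which encodes the pore former perforin, already stood at 57.7, 50.2 and 60.6 CPM in naive cells and rose to 287, 303 and 342 CPM (2.47 ± 0.13). Its fold change was far smaller than those of the granzymes, although its groups did not overlap either. Klrc1, the gene of an inhibitory NKG2 receptor, rose from 2.34 to 83.1 CPM.

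Receptors that restrain T cells rose with them. Of 17 genes linked to inhibition and exhaustion, 14 rose and 1 fell, with a median log2 fold change of 1.98. Pdcd1, the gene of PD-1, was at 22.5, 26.6 and 21.2 CPM in naive and 345, 314 and 359 CPM in allogeneic libraries (3.86 ± 0.11, adjusted p = 1.19e-09, edgeR). Lag3 (ENSMUSG00000030124, chromosome 6, 124904361 to 124911705), a ligand of MHC class II related to CD4, rose from 8.17 ± 1.24 to 210 ± 6 CPM. Havcr2, which encodes TIM-3, was nearly silent in naive libraries at 0.278, 0.461 and 0.472 CPM and reached 112, 125 and 137 CPM, a log2 fold change of 8.28 ± 0.28. All 3 allogeneic libraries were high for each of these receptors and all 3 naive libraries low. Tigit rose from 8.73 to 199 CPM. Tox, a transcription factor tied to exhaustion, was already at 90.1 CPM in naive cells and rose only to 111 CPM (0.30 ± 0.07, adjusted p = 0.00448), a rise that was not called without allogeneic library 3 (0.22, adjusted p = 0.059). The member that fell was Vsir, the gene of the checkpoint protein VISTA, from 470 to 326 CPM, and without allogeneic library 3 the number that fell was 3.

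Activation and costimulation genes rose in 15 of 18 cases and fell in none, with a median log2 fold change of 1.42. Il2ra, the high-affinity subunit of the interleukin-2 receptor, lay at 52.9, 58.7 and 55.7 CPM in naive and 174, 187 and 203 CPM in allogeneic libraries (1.75 ± 0.11). Icos went from 47.3 to 204 CPM, Ly6a, the gene of Sca-1, from 58.2 to 480 CPM, and Tnfsf14 from 13.1 to 59.7 CPM. Cd38 rose from 4.67 to 24.3 CPM. None of these 5 genes had overlapping groups. The signalling machinery under the T-cell receptor moved less and in both directions: 11 of 25 genes rose and 4 fell, with a median of 0.15. Zap70, the kinase bound to the receptor chains, rose from 246 to 440 CPM, and the adaptor gene Sla from 215 to 552 CPM. The phosphatase genes Ptpn22 and Ubash3b, which damp receptor signals, rose by 1.03 ± 0.08 and 1.21 ± 0.08 on the log2 scale. Those that fell included Rasgrp1 (486 to 228 CPM) and Plcg1, both of which carry the signal forward. Immediate early genes, which respond within minutes to stimulation, fell in 7 of 15 cases and rose in 2. The 7 became 4 without naive library 1 or without allogeneic library 2. Jun was at 209, 175 and 133 CPM in naive against 57.1, 56.2 and 47.3 CPM in allogeneic libraries (-1.69 ± 0.18), and Egr1 fell from 99.3 to 57.3 CPM. Fos ranged from 28.2 to 64.8 CPM within the naive group alone and was not called (adjusted p = 0.131), though without naive library 3 it was (-0.74, adjusted p = 0.00437), as it was with the replicate number as a block (-0.41, adjusted p = 0.0396).

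Cytokine genes split. Of 18 that passed the filter, 11 rose, 3 fell and 4 were not called, with a median log2 fold change of 2.96, and 4 more lay below it. Members near 0 in naive libraries, such as Il3 and Il13, could pass only through a transplant group, so this count and median were partly set in advance. Ifng, the gene of interferon gamma, was at 2.05, 2.84 and 2.42 CPM in naive and 49.8, 43.8 and 48.7 CPM in allogeneic libraries (4.28 ± 0.13, adjusted p = 1.52e-09, edgeR). Il10 rose from 0.270 to 6.46 CPM, Il13 from 0.0409 to 8.54 CPM and Csf2 from 0.111 to 7.65 CPM. Csf1 (ENSMUSG00000014599, chromosome 3, 107741048 to 107760469), the growth factor of macrophages, was at 170, 182 and 126 CPM against 4.77, 5.76 and 5.25 CPM in naive libraries. Il3, named after its values were seen, had no count in any naive library, and its level in allogeneic libraries was at least 60.6-fold higher than the level of 3 counts over the naive group. Il2, the growth factor that activated T cells release early, was low in both groups, at 0.264, 0.285 and 0.306 CPM in naive and 0.338, 0.228 and 0.334 CPM in allogeneic libraries. Its groups overlapped and it was not called (adjusted p = 0.878). The 3 that fell were Lta (12.2 to 2.76 CPM), Tnf (20.2 to 14.2 CPM) and Il16 (560 to 236 CPM). Chemokine genes rose in 5 of 9 cases and fell in none. Ccl3 went from 0.468 to 39.9 CPM and Ccl4 from 1.44 to 33.9 CPM, while Ccl5 rose from 75.9 to 223 CPM and Ccl1 from 0.171 to 21 CPM.

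Cytokine receptors were remodelled rather than raised or lowered as a class: 11 of 26 rose and 12 fell, with a median of -0.16. Il2rb (ENSMUSG00000068227, chromosome 15, 78479256 to 78495271), the chain shared by the receptors for interleukin-2 and interleukin-15, was at 1420, 1640 and 1450 CPM in allogeneic and 321, 356 and 356 CPM in naive libraries. Il12rb2, which makes the interleukin-12 receptor functional, rose from 4.21 to 95.7 CPM (4.51 ± 0.19). Ifngr2, the chain that limits the response to interferon gamma, fell from 47.4, 41.7 and 51.9 CPM to 4.38, 3.76 and 3.82 CPM (-3.56 ± 0.12). The allogeneic libraries held more Ifng RNA and less Ifngr2 RNA than the naive ones, with no overlap for either gene. Tgfbr3 fell from 126 to 5.42 CPM, Il6st, the chain shared by the interleukin-6 family, from 597 to 73.3 CPM, and Il4ra from 352 to 137 CPM. Of 10 SOCS, STAT and JAK genes, 5 rose and 3 fell. Cish and Socs2, which are induced by STAT5, rose from 35.5 to 137 CPM and from 2.80 to 11.3 CPM, Jak3 rose from 162 to 289 CPM and Jak2 from 126 to 193 CPM. Stat5b, Stat6 and Jak1 fell by 0.35 to 0.37 on the log2 scale.

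Transcription factors of effector cells rose. In a list of 26 effector and memory factors, 17 rose and 7 fell, with a median of 1.34. Bhlhe40 (ENSMUSG00000030103, chromosome 6, 108660629 to 108666925), a stress-responsive repressor needed for cytokine production by T cells, was at 9.45, 12.7 and 9.16 CPM in naive and 421, 431 and 382 CPM in allogeneic libraries (5.30 ± 0.14, adjusted p = 9.68e-10, edgeR). Tbx21, the gene of T-bet, rose from 27.0, 37.7 and 36.3 CPM to 250, 278 and 317 CPM. Id2 rose from 56.4 to 407 CPM while Id3, which favours memory precursors, fell from 43.5 to 10.5 CPM. Prdm1, encoding BLIMP-1, rose from 10.5 to 73.3 CPM and its counterpart Bcl6 fell from 33.4 to 17.7 CPM. Each member of these opposing pairs moved with no overlap between libraries. Runx2 and Nfil3 both rose by 3.49 on the log2 scale. Eomes, a T-box factor of memory cells, lay at 57.1, 54.9 and 55.0 CPM in naive and 82.8, 66.9 and 55.0 CPM in allogeneic libraries, which met at the lowest value, and it was not called (adjusted p = 0.0898) except without allogeneic library 3 (0.36, adjusted p = 0.0397).

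Helper and regulatory lineage genes went mostly down, 10 of 16 falling and 6 rising, with a median of -0.82. Foxp3, which defines regulatory T cells, was at 57.2, 65.0 and 57.1 CPM in naive and 24.6, 34.2 and 25.2 CPM in allogeneic libraries (-1.09 ± 0.14, adjusted p = 6.04e-05). Some other genes of regulatory T cells were lower as well: Ikzf4 fell from 22.7 to 6.46 CPM, Lrrc32, the gene of GARP, from 28.4 to 7.97 CPM, Izumo1r from 104 to 33.3 CPM and Gpr83 from 22.1 to 0.773 CPM. The 6 genes of the list that rose were each at least 2-fold higher, by up to 3.44 on the log2 scale, and not all are named here. Gata3 rose from 106, 102 and 103 CPM to 283, 310 and 270 CPM. The Notch and Wnt list held 14 genes, of which 2 rose and 5 fell. Rbpj rose from 47.0 to 92.6 CPM, and Axin2 and Dtx1, targets of Wnt and Notch, fell from 93.5 to 61.6 CPM and from 498 to 238 CPM. GIMAP GTPases, which support lymphocyte survival, rose in 4 of 8 cases and fell in 1, with Gimap7 moving most, from 62.9 to 144 CPM.

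Homing and adhesion genes mostly rose: 22 of 25 rose and 3 fell, with a median of 1.05 and no overlap between groups for any of the 25. This list leaves out the homing receptor gene Ccr7, which was counted with the naive-state genes and fell (log2 fold change -5.19). Cxcr3 rose from 49.3, 61.3 and 59.9 CPM to 222, 208 and 217 CPM. Cx3cr1 rose from 2.2 to 60.5 CPM, Ccr2 from 12.0 to 138 CPM and Cxcr6 from 46.8 to 227 CPM. Itga1 (ENSMUSG00000042284, chromosome 13, 114953096 to 115101964), the collagen-binding chain of the integrin VLA-1, was at 1.2, 2.4 and 1.85 CPM in naive and 73.3, 107 and 113 CPM in allogeneic libraries (5.75 ± 0.44). Gcnt1, an enzyme that builds selectin ligands, rose from 1.83 to 39.7 CPM. Itgae, whose product binds E-cadherin on epithelium, went the other way, from 87.9, 81.9 and 105 CPM to 13.4, 13.6 and 10.3 CPM (-2.88 ± 0.18). Cxcr4 fell from 110 to 79.2 CPM and Gpr183 from 105 to 84.3 CPM.

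**Figure D2:**
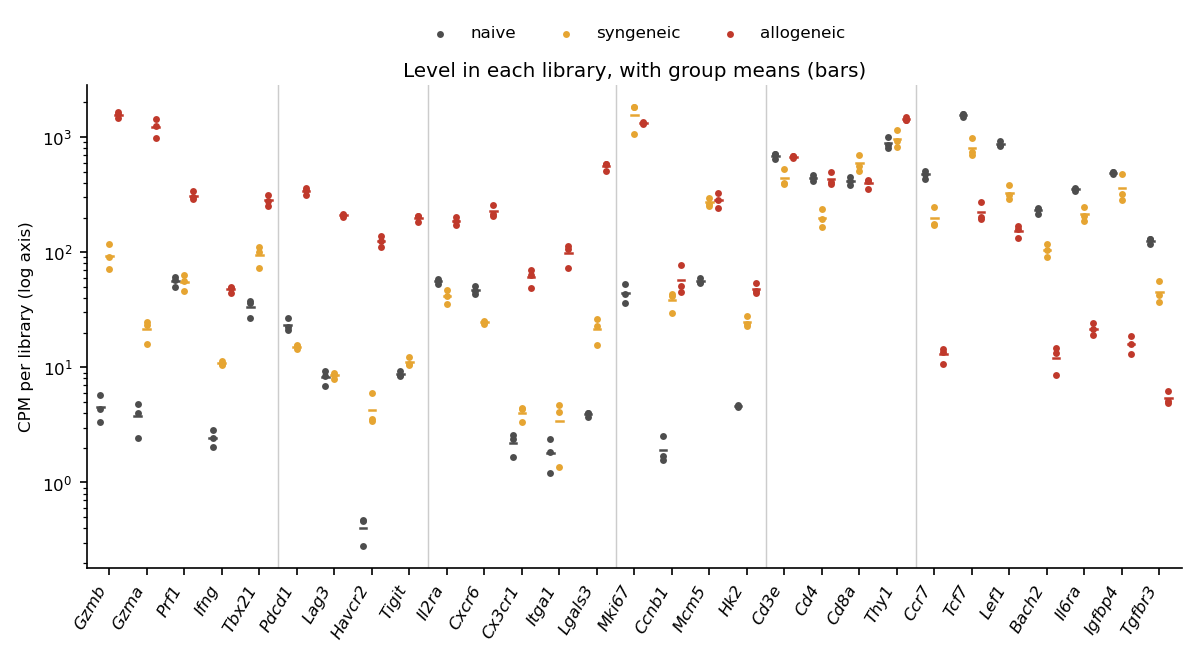
Expression in CPM (log axis) of named genes in each naive, syngeneic and allogeneic library, 1 point per library and 3 per group. The allogeneic points lie clear of the naive points for genes such as Gzmb, Havcr2, Ccr7 and Igfbp4, while those of Cd3e and Cd4 overlap.

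Proliferation genes rose without exception. All 30 mitosis genes and all 30 DNA replication genes rose, with medians of 4.59 and 2.40, and no library of one group overlapped the other for any of the 60. Mki67 was at 36.5, 52.6 and 43.0 CPM in naive and 1330, 1300 and 1340 CPM in allogeneic libraries (4.91 ± 0.23, adjusted p = 1.21e-08, edgeR). Among mitotic regulators, Ccna2 rose from 5.57 to 193 CPM, Ube2c from 3.71 to 120 CPM, Aurkb from 2.65 to 82.2 CPM and Cdk1 from 3.06 to 81.9 CPM. Replication genes moved by less where naive cells already expressed them. The helicase subunit gene Mcm4 was at 88.6 CPM in naive and 211 CPM in allogeneic cells, Mcm2 at 77.9 and 206 CPM, and Mcm5 at 56.6 and 285 CPM. Mcm10, which loads at origins as they fire, went from 2.00, 2.32 and 2.54 CPM to 50.1, 38.5 and 47.9 CPM (4.31 ± 0.16), and Rrm2, a subunit of ribonucleotide reductase, from 10.4 to 200 CPM.

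Both lists are known to be controlled through short promoter elements, the cell-cycle homology region (CHR) and the CCAAT box in mitotic genes and E2F sites in replication genes, so these letters were counted in RefSeq promoters of GRCm38.p6. The CHR was searched as TTTGAA and, in its other form, as TTCGAA, and the CCAAT box by its name. An E2F site was searched as TTTGGCG, in its second form as TTTCCCG, and in its last form as TTTCGCG. Matches were exact, on both strands, in the 250 bases before each start site, without the bases after it. A window was counted once however many matches it held, overlapping ones included. Of the mitosis genes 25 of 30 had a promoter in the table, and 10 of their 25 windows held a CHR and 20 (80.0%) a CCAAT box, against 17.1% and 33.8% of all 32851 windows. A CCAAT box was also frequent in replication genes, in 62.1% of the 29 windows of 25 genes, with a CHR in 24.1%. Cytotoxic genes, which rose too, held a CHR in 23.8% of 21 windows and a CCAAT box in as many. An E2F site stood in 34.5% of the replication windows, in 5 of the 25 mitosis windows and in 4.57% of all windows. Naive-state genes, which fell, held a CHR in 7.69% and a CCAAT box in 28.2% of 39 windows. These shares describe the windows and were not tested, and a match is not a bound site. The sequences of 5 of these promoters are given because each carries the elements of its list within 150 bases. They are written 5′ to 3′ on the gene's strand, with CHR, CCAAT and E2F matches in capitals on whichever strand they fall. They lie at chr7:135716380-135716529 (Mki67, minus strand), chr6:125191587-125191736 (Ncapd2, a condensin subunit, minus strand), chr19:37376232-37376381 (Kif11, a spindle motor, plus strand), chr1:128359706-128359855 (Mcm6, minus strand) and chr8:75109359-75109508 (Mcm5, plus strand).
Mki67: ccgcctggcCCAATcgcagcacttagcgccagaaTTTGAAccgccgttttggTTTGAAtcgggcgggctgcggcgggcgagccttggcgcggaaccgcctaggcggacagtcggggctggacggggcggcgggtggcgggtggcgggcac
Ncapd2: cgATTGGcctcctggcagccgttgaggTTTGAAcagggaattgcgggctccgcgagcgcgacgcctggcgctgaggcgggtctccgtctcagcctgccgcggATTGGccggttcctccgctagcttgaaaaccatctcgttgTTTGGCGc
Kif11: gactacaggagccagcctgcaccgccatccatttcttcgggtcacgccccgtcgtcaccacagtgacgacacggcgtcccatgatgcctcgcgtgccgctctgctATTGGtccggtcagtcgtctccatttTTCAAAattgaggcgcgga
Mcm6: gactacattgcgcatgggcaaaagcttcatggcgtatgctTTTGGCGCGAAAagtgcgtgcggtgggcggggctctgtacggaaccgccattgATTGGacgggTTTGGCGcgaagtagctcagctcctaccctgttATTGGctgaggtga
Mcm5: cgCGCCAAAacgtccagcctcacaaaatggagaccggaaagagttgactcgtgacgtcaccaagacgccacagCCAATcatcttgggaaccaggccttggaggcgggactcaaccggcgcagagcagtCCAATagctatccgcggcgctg
All 5 genes rose in allogeneic cells, and 3 of them, named here for their promoters after their values were seen, had not been described above: Ncapd2 went from 55.9 to 436 CPM, Kif11 from 6.77 to 179 CPM and Mcm6 from 95 to 317 CPM.

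Histone genes expressed in S phase rose in 24 of 25 cases, with a median of 3.61. Near-identical copies of these genes can share reads, so single values are uncertain, and the summed level of the list went from between 589 and 744 CPM in naive to between 5130 and 7820 CPM in allogeneic libraries. Recombination repair genes rose in 21 of 23 cases (median 2.84), Brca1 from 6.33 to 48.9 CPM. Regulators of the G1 phase were mixed, with 22 of 31 rising and 4 falling. The repressor genes E2f7 and E2f8 rose from 1.61 to 35.5 and from 2.88 to 76.7 CPM, and Cdk6 from 52.7 to 229 CPM. Ccnd2, a D-type cyclin, fell from 784 to 273 CPM and Myc from 140, 131 and 142 CPM to 91.0, 81.1 and 93.6 CPM (-0.63 ± 0.09, adjusted p = 0.000154). Myc RNA was thus lower in a population in which every replication and mitosis gene listed was higher, with no overlap between groups. The inhibitor genes Cdkn1a and Cdkn2a rose, from 0.306 to 12.7 and from 0.0427 to 3.33 CPM, whereas Cdkn1b, which holds resting cells in G0, fell from 186 to 97.0 CPM. Among 20 chromatin enzymes 9 rose and 6 fell: Uhrf1 and Dnmt1, which copy DNA methylation at the fork, rose from 15.8 to 198 and from 231 to 580 CPM, Ezh2 rose from 24.5 to 97.0 CPM, and Tet1, which oxidises methylcytosine, fell from 41.8 to 2.92 CPM (-3.84 ± 0.12).

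Cell death genes tilted upward. Of 22 BCL2 family and caspase genes, 14 rose and 4 fell, with a median of 0.78. Bcl2l11, which encodes BIM, rose from 85.3 to 188 CPM, while the survival gene Mcl1 fell from 457 to 334 CPM, Cflar from 191 to 133 CPM and Fas from 15.9 to 8.85 CPM. Bcl2 was not called: its libraries held 212, 226 and 234 CPM in naive and 157, 214 and 198 CPM in allogeneic cells, with overlap. Without allogeneic library 2 or 3 it was called, with log2 fold changes of -0.33 and -0.34, and so it was with a minimum count of 50 (-0.30, adjusted p = 0.0358). The p53 targets went both ways, 6 of 14 rising and 4 falling. Pmaip1, the gene of NOXA, rose from 3.05 to 42.7 CPM and Sesn1 fell from 111 to 25.1 CPM, and Trp53 itself fell from 206 to 150 CPM.

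Metabolic genes rose in most pathways, by less than the cell-cycle genes. Glycolysis genes rose in 17 of 20 cases and fell in 1, with a median of 0.90. Hk2 (ENSMUSG00000000628, chromosome 6, 82725025 to 82774454), the inducible hexokinase, was at 4.55, 4.64 and 4.74 CPM in naive and 46.2, 44.5 and 53.6 CPM in allogeneic libraries (3.37 ± 0.11). The lactate exporter gene Slc16a3 rose from 3.91 to 20.3 CPM, Gapdh from 190 to 634 CPM and Ldha from 327 to 686 CPM. Slc2a1, the main glucose transporter of activated T cells, moved less, from 45.6 to 67.0 CPM. All 6 called genes of the 7 in the pentose phosphate pathway rose, G6pdx and Pgd by 0.98 and 0.94 on the log2 scale.

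Nuclear and mitochondrial genes for respiration moved apart. Of 31 nuclear genes for respiratory chain subunits, 30 rose and none fell (median 0.73), with Cox5a going from 33.7 to 97.7 CPM. Of 12 genes encoded by mitochondrial DNA, 7 fell and none rose (median -0.39), with mt-Nd2 at 200, 186 and 181 CPM in naive and 94.5, 124 and 117 CPM in allogeneic libraries (-0.76 ± 0.11). As a share of all counts, mitochondrially encoded genes made up 0.343 ± 0.0512% of allogeneic and 0.459 ± 0.01% of naive libraries, which did not overlap (two-sided exact permutation p = 0.1, the smallest that 3 against 3 allows). Enzymes of the TCA cycle rose in 17 of 23 cases, Cs by 0.91 and Idh3a by 1.19, and the exception was Idh2, which fell from 51.0 to 16.9 CPM. Fatty acid oxidation genes rose in 14 of 20 cases and fell in 2. Cpt1a, which controls entry of fatty acids into mitochondria, was at 111, 73.0 and 96.4 CPM in naive and 219, 255 and 267 CPM in allogeneic libraries (1.40 ± 0.14). Etfb rose from 25.7 to 90.2 CPM.

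One gene of the serine, glycine and folate list exceeded the rest. Gldc (ENSMUSG00000024827, chromosome 19, 30098447 to 30175429), which encodes the decarboxylase that starts glycine cleavage, was at 0.0641, 0.0755 and 0.00874 CPM in naive and 25.2, 28 and 31.9 CPM in allogeneic libraries (9.10 ± 0.40, adjusted p = 9.08e-09, edgeR). Amt, another subunit gene of the same system, fell from 0.519 to 0.242 CPM, a call lost without naive library 3 (-0.64) or allogeneic library 1 (-0.86). The list as a whole rose in 10 of 14 cases and fell in 3 (median 0.56), with Psat1 going from 30.5 to 108 CPM and Shmt1 from 10.6 to 23.5 CPM. Nucleotide synthesis genes rose in 12 of 19 cases and fell in 2, among them Cad (135 to 226 CPM) and Paics (92.5 to 165 CPM). Amino acid transporters rose in 8 of 15 cases and fell in 1. Slc43a3, listed for its gene family and not as an established amino acid carrier, rose from 3.64 to 37.6 CPM. It was the only member at least 2-fold higher. Slc1a5, a glutamine carrier, rose from 114 to 211 CPM and Slc7a5, the carrier of large neutral amino acids, from 57.1 to 91.3 CPM. Sterol and fatty acid synthesis was mixed, with 12 of 26 rising and 6 falling. Scd2 rose from 82.4 to 141 CPM.

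Genes for making and breaking down proteins did not move as a block. All 25 proteasome genes rose, by between 0.52 and 1.17 on the log2 scale, with no overlap between groups for any of them. In contrast, 31 of 43 cytosolic ribosomal protein genes fell and none rose (median -0.61). Rps27 was at 950, 839 and 1200 CPM in naive and 425, 334 and 350 CPM in allogeneic libraries (-1.43 ± 0.18). The highest allogeneic library lay below the lowest naive library. With 1 library left out, between 21 (without naive library 3) and 38 (without allogeneic library 1) of the ribosomal protein genes fell. Factors of ribosome biogenesis changed little as a group, 4 of 27 rising and 4 falling with a median of 0.04 (7 fell with scaling by library sizes alone, and the median ranged from -0.08 without allogeneic library 1 to 0.13 without allogeneic library 2): Ncl rose from 436 to 639 CPM and Utp20 fell from 89.3 to 60.8 CPM. Endoplasmic reticulum and unfolded protein response genes rose in 15 of 22 cases and fell in 3. The sensor genes Atf6 and Ern1 rose from 18.6 to 124 CPM and from 18.3 to 63.9 CPM and the chaperone gene Hspa5 from 291 to 485 CPM, whereas Ddit3, the gene of the death-linked factor CHOP, fell from 13.2 to 7.53 CPM. Cytosolic chaperones rose in 9 of 15 cases, Hspd1 from 59.7 to 109 CPM, and Dnaja1 and Dnajb1 fell, the latter not called without naive library 3 (-0.32). Antioxidant genes rose in 13 of 22 cases and fell in 1, with Txn1, the gene of thioredoxin, going from 36.6 to 178 CPM and Srxn1 from 0.605 to 10.9 CPM.

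Structural genes rose as well. In the list of cytoskeletal, S100, annexin and galectin genes, 23 of 29 rose and 1 fell, with a median of 1.35. Lgals3 (ENSMUSG00000050335, chromosome 14, 47367751 to 47386160), the gene of galectin-3, was at 3.68, 4.02 and 4.04 CPM in naive and 580, 579 and 511 CPM in allogeneic libraries (7.15 ± 0.20, adjusted p = 1.19e-09, edgeR). Lgals1, the gene of galectin-1, rose from 67.5 to 1250 CPM. S100a4 rose from 6.72 to 212 CPM and Anxa1 from 1.76 to 71.4 CPM. Tubb6 rose and Tubb2a fell, from 0.0946 to 7.96 and from 9.13 to 2.66 CPM.

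Interferon-stimulated genes did not rise as a class although Ifng did. Of 25 genes of the type I response, 4 rose and 11 fell (median -0.14), and of 23 genes of the interferon gamma response, 7 rose and 10 fell (median -0.02), the latter becoming 6 without naive library 1 and 5 without naive library 3. By at least 2-fold, 4 type I genes rose and 7 fell, and 5 interferon gamma genes rose and 3 fell. The interferon gamma list was spread widely, from -1.86 to 4.51 on the log2 scale. Ifit1 fell from 24.6 to 10.5 CPM and Usp18 from 22 to 9.12 CPM, while the RNA sensor gene Ifih1 rose from 34.0 to 70.7 CPM and Oas3 from 68.4 to 147 CPM. Isg15 lay at 10.8, 9.46 and 8.64 CPM in naive and 10.1, 8.67 and 11.1 CPM in allogeneic libraries, with overlap and no call. Genes of MHC class I presentation rose in 14 of 21 cases and fell in none, though none by 2-fold (median 0.40). Psmb8 and Psmb9, subunits of the immunoproteasome, both rose by 0.70, and B2m, the shared light chain, had means of 1380 CPM in naive and 1390 CPM in allogeneic cells and was not called.

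**Figure D3:**
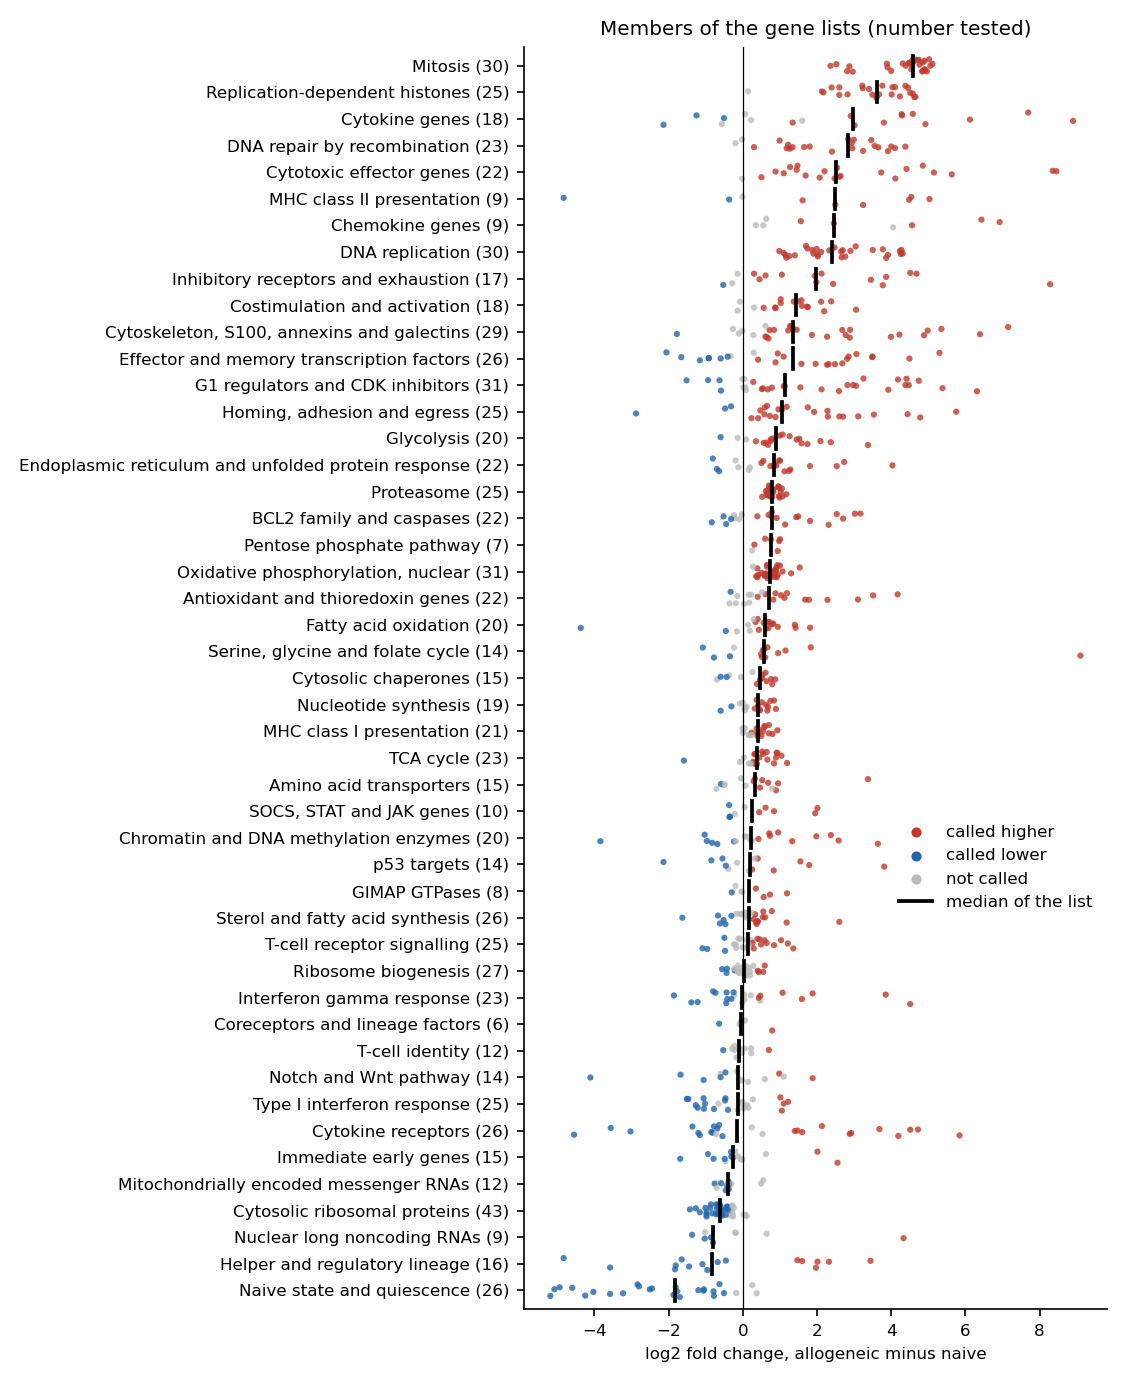
Log2 fold change of allogeneic over naive libraries for the tested members of each gene list, 1 point per gene, with called genes coloured by direction and a bar at the list's median. The mitosis, replication, histone and cytotoxic lists lie above 0 almost throughout, and the naive-state and ribosomal protein lists lie below it, with medians of -1.84 and -0.61.

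Markers of other cells rose in the allogeneic libraries too, from very low levels. Those near 0 in naive libraries could pass the filter only through a transplant group, so the counts of markers that rose were partly set in advance. All 13 neutrophil genes rose (median 8.13), and their summed level went from between 7.57 and 12.7 CPM in naive to between 747 and 1300 CPM in allogeneic libraries. Ngp, a granule protein of neutrophil precursors, was at 0.235, 0.0839 and 0.149 CPM in naive and 173, 185 and 313 CPM in allogeneic libraries. Lcn2 rose from 0.146 to 98.4 CPM and S100a8 from 0.241 to 85.0 CPM. Macrophage and monocyte genes rose in 10 of 15 cases, from a sum of 4.5 to 5.58 CPM to one of 56.1 to 85.7 CPM, with Lyz2 alone at 36.3 CPM and the receptor gene Csf1r at 1.76 CPM. Basophil, mast cell and progenitor genes rose in 7 of 9 cases, from 8.80 to 11.8 CPM to 35.4 to 86.2 CPM in sum, Hdc going from 0.584 to 21.8 CPM. Erythroid genes rose in 11 of 13 cases but reached only 26.1 to 97.0 CPM in sum, from 8.56 to 9.41 CPM. The 1 of 6 platelet genes that was called rose, with a sum of 2.32 to 2.67 CPM in allogeneic and 2.02 to 3.30 CPM in naive libraries, and without naive library 1, naive library 3 or syngeneic library 1 there were 2. The part of these cells in the differences of other genes was not tested.

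Lymphoid markers moved unevenly. Of 13 B-cell genes 7 rose and 3 fell, and the sum, 1020 to 1450 CPM in allogeneic against 446 to 493 CPM in naive libraries, was almost all Ighm. The B-cell receptor gene Cd79a was low, at 0.531 CPM in naive and 0.996 CPM in allogeneic cells, a rise of 0.90 on the log2 scale whose call was lost without naive library 3 (0.72), allogeneic library 1 (0.86) or allogeneic library 3 (0.73), and with library sizes alone (adjusted p = 0.0528), the replicate block (0.0503) or limma-voom (0.0587). Cd22 rose from 5.68 to 27.0 CPM. Plasma cell genes rose in 5 of 6 cases, from 2.39 to 3.94 CPM to 43.8 to 93.1 CPM in sum, with Jchain at 49.2, 28.5 and 47.7 CPM in allogeneic libraries. Beside that list, 159 of the 164 immunoglobulin variable segments that passed the filter on low counts rose (median 7.67). Segments near 0 in naive libraries could pass the filter only through a transplant group, so this share was partly set in advance. Their sum went from 4.5, 7.88 and 4.27 CPM in naive to 378, 197 and 352 CPM in allogeneic libraries. In syngeneic libraries it was 39.6, 166 and 194 CPM. No segment held more than 6.98% of that sum in an allogeneic library, although related segments can share reads. Of 7 natural killer genes 4 rose and 3 fell. Ncr1, which defines natural killer cells, reached only 1.74 CPM, Klrb1c rose from 9.71 to 31.1 CPM, and Klra4, Klra8 and Klra9 were at or near 0 in allogeneic libraries; the call of Klra8, which fell from 0.0313 CPM to no count, was lost without naive library 2, naive library 3 or allogeneic library 2 and with limma-voom (-2.34, adjusted p = 0.0961). Of 7 dendritic cell genes 2 rose, a count that became 1 without naive library 1 or 2 or allogeneic library 1 or 3, and 4 without allogeneic library 2. Itgax, the gene of CD11c that activated T cells also express, supplied 198 of a mean sum of 201 CPM, and Siglech, which marks plasmacytoid dendritic cells, had means of 0.106 CPM in naive and 0.0987 CPM in allogeneic cells and was not called.

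Genes of MHC class II presentation rose in 6 of 9 cases and fell in 2. H2-Ab1 was at 18.1, 7.94 and 9.60 CPM in allogeneic and 0.321, 0.520 and 0.245 CPM in naive libraries, and Cd74 rose from 7.08 to 39.9 CPM. H2-Ob, part of a modulator of peptide loading, fell most, from 35.7, 29.7 and 44.4 CPM in naive to 1.12, 1.14 and 1.61 CPM in allogeneic libraries (-4.83 ± 0.21). The summed level of the list was 77.0 to 95.9 CPM in naive and 81.1 to 147 CPM in allogeneic libraries. Gamma delta T-cell genes fell in 4 of 6 cases, with Trdc, the constant region of the delta chain, going from 40.3, 45.0 and 39.9 CPM to 3.38, 2.86 and 2.10 CPM (-3.91 ± 0.17). Joining segments of T-cell receptor genes fell in 63 of 67 cases (median -1.09), and their sum went from 158, 175 and 133 CPM to 58.9, 75.1 and 76.2 CPM, while 48 of 98 variable segments fell and their sum went from 448 to 530 CPM to 346 to 401 CPM.

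**Figure D4:**
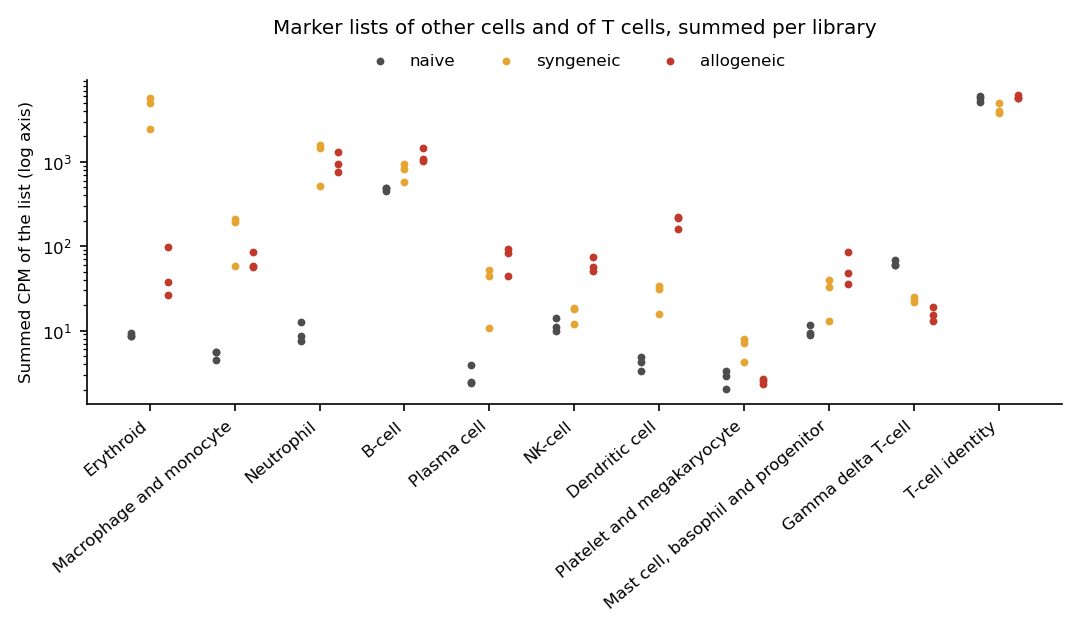
Summed expression in CPM (log axis) of marker lists for T cells and for other cell types in each of the 9 libraries, 1 point per library coloured by group. T-cell identity genes lie between 5190 and 6190 CPM in naive and allogeneic libraries, and the neutrophil list rises from about 10 CPM to between 747 and 1300 CPM.

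Outside the lists, the genes that rose most were of mixed known use. Those near 0 in naive libraries, such as Chil3 and Ifitm6, could pass the filter only through a transplant group. Chil3 (ENSMUSG00000040809, chromosome 3, 106147554 to 106167564), a chitinase-like protein of myeloid cells, was at 0.0499, 0.0168 and 0.0437 CPM in naive and 95.9, 69.6 and 104 CPM in allogeneic libraries (11.19 ± 0.59). Lrg1, Hp and C3, which myeloid cells or the liver make, rose by 8.83, 7.67 and 7.60 on the log2 scale. Among them were 3 interferon-induced transmembrane genes: Ifitm1 rose from 0.306 to 170 CPM, Ifitm2 from 0.713 to 126 CPM and Ifitm6 from 0.0258 to 17.9 CPM. Serpinb9b, of the family of granzyme inhibitors, rose from 0.0290 to 16.3 CPM, Dnase1l3, a secreted nuclease, from 0.434 to 65.6 CPM and Galnt3, which starts O-linked glycosylation, from 0.114 to 25.5 CPM. Pik3r6, a regulatory subunit of phosphoinositide 3-kinase gamma, rose from 0.0622 to 16.8 CPM. Dpysl3, Lipg, Muc20 and Nccrp1 rose by between 7.5 and 7.98.

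Outside the lists, the genes that fell most included several membrane proteins. Gprc5b (ENSMUSG00000008734, chromosome 7, 118972047 to 118995211), an orphan receptor, was at 19.9, 15.6 and 21.8 CPM in naive and 0.141, 0.145 and 0.0927 CPM in allogeneic libraries (-7.21 ± 0.31, adjusted p = 7.45e-09, edgeR). St8sia6, a sialyltransferase, fell from 75.1 to 0.927 CPM, and Tdrp from 133 to 2.94 CPM. Some carry ions or solutes: Atp1b1, a subunit of the sodium pump, fell from 83.4 to 2.48 CPM, Kcna2, a potassium channel, from 33.2 to 1.08 CPM, Slc16a5 from 58.7 to 1.32 CPM and Slc6a19 from 22 to 0.403 CPM. Vipr1, the receptor for vasoactive intestinal peptide, was at 163, 142 and 180 CPM in naive and 5.17, 7.85 and 5.75 CPM in allogeneic libraries. Lypd6b, Ampd1, Arhgap29, Amigo2, Xkrx, Tmem108 and Sorcs2 fell by between 4.63 and 6.15.

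Noncoding transcripts fell more often than they rose. Among 749 lincRNA genes 242 fell and 93 rose, against 5447 rising and 3413 falling of 13934 protein-coding genes. Malat1, an abundant nuclear RNA, was at 6130, 6280 and 5230 CPM in naive and 1720, 2370 and 2720 CPM in allogeneic libraries (-1.37 ± 0.18). Of 9 nuclear long noncoding RNAs 4 fell and 1, Miat, rose, from 0.300 to 6.00 CPM, while Neat1 overlapped between groups and was not called. Peg13, an imprinted transcript, fell from 71.6 to 6.38 CPM and Lncpint from 38.7 to 13.2 CPM. Lockd, transcribed next to Cdkn1b, rose from 2.01 to 11.4 CPM, in the opposite direction to Cdkn1b.

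The comparison of transplanted with naive cells does not separate a foreign host from transplantation itself, so the syngeneic libraries were set beside it. The transplants also differed in T-cell dose, irradiation and recipient strain, which cannot be told apart here from the histocompatibility difference. The changes of both transplants share the naive libraries, and the test of their difference is the direct contrast, which called 8832 genes (45.0%), 4766 higher in allogeneic (24.3%) and 4066 lower (20.7%). Syngeneic against naive, edgeR called 8213 genes (41.9%), 4386 higher (22.4%) and 3827 lower (19.5%). For cell division the medians lay side by side: mitosis 4.59 in allogeneic and 4.17 in syngeneic cells, and replication 2.40 and 2.36, each against naive. Allogeneic and syngeneic cells nevertheless differed at 14 of 30 mitosis genes, all higher in allogeneic cells, and at 5 of 30 replication genes, all lower. Between the transplants Mki67, at means of 1320 (allogeneic) and 1570 CPM (syngeneic), was not called (-0.24, adjusted p = 0.316) except without syngeneic library 1 (-0.45, adjusted p = 0.0158).

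Effector lists set the transplants apart. Cytotoxic genes had a median of 2.51 in allogeneic and 0.81 in syngeneic cells against naive, and 20 of 22 were higher in allogeneic than in syngeneic cells. Gzmb had means of 1560 CPM in allogeneic and 93.4 CPM in syngeneic cells, and Prf1 was at 55.4 CPM in syngeneic cells, next to 56.2 CPM in naive cells. Inhibitory genes had medians of 1.98 and -0.14, and 15 of 17 were higher in allogeneic cells, among them Lag3 at 8.51 CPM in syngeneic against 210 CPM in allogeneic cells (4.62, adjusted p = 1.44e-09). Of the 26 naive-state genes 23 fell in allogeneic and 21 in syngeneic cells, with medians of -1.84 and -0.73, and 19 of 26 were lower in allogeneic than in syngeneic cells. Igfbp4 was at 360 CPM in syngeneic cells and Dapl1 at 73.4 CPM. Ribosome biogenesis separated the transplants in the other direction: 19 of 27 genes rose in syngeneic cells against naive, 4 in allogeneic cells, and 17 of 27 were lower in allogeneic than in syngeneic cells. Type I interferon genes were likewise lower in allogeneic than in syngeneic cells in 17 of 25 cases, with Rsad2 at 128 CPM in syngeneic, 6.27 CPM in allogeneic and 6.16 CPM in naive cells. The coreceptors differed between transplants as they did not against naive: the mean of Cd4 was 432 CPM after the allogeneic and 200 CPM after the syngeneic transplant (1.11, adjusted p = 5.48e-05), and that of Cd8a 397 and 591 CPM (-0.57, adjusted p = 0.0038).

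Markers of other cells bear on this contrast as well, and their part was not tested. The erythroid list summed to between 2430 and 5760 CPM in syngeneic libraries, above the 26.1 to 97.0 CPM of allogeneic ones, and the neutrophil list to between 521 and 1590 CPM, a range that contains the allogeneic one. The 12 T-cell identity genes summed to 3790 to 5040 CPM in syngeneic libraries, and 8 of them were higher in allogeneic cells.

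**Figure D5:**
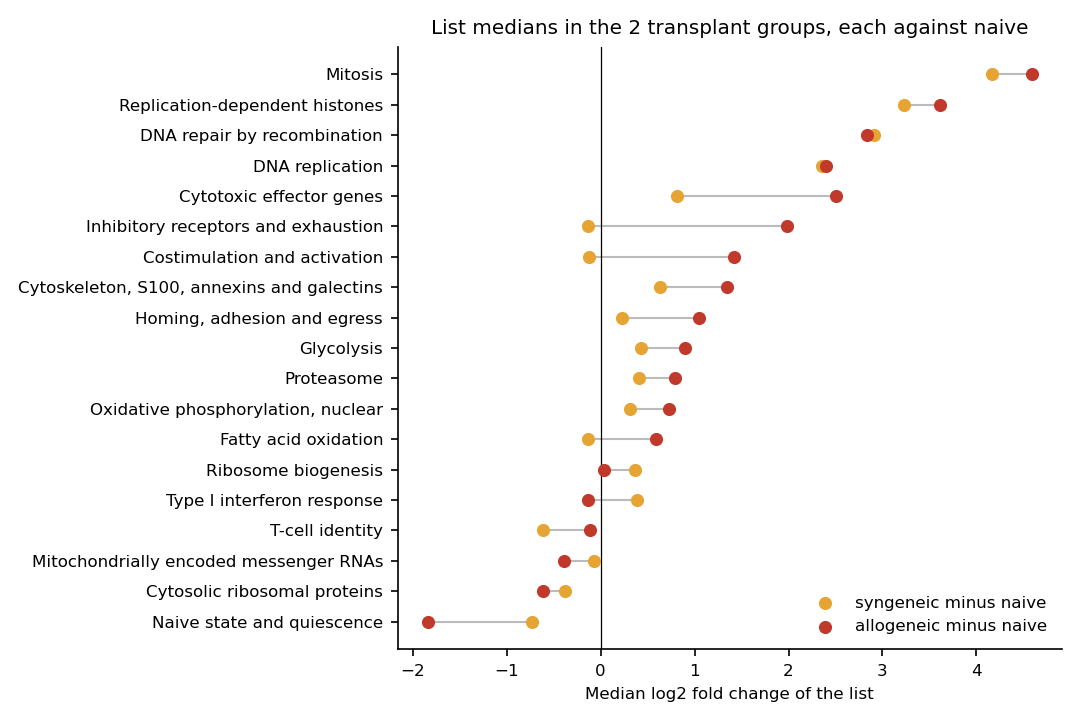
Median log2 fold change against naive of each gene list in syngeneic and in allogeneic libraries, 2 points per list, computed against the same 3 naive libraries. The points of the mitosis and replication lists lie close together (4.17 and 4.59, 2.36 and 2.40), and those of the cytotoxic, inhibitory and naive-state lists lie apart.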

How the data were processed

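The authors deposited one table of raw counts per Ensembl gene for 9 mouse libraries of stranded total RNA depleted of ribosomal RNA. The submitters' processing notes name the genome build GRCm38 and, with no roles, HTSeq 0.6.1, Bowtie2 2.2.1, TopHat2 2.0.13 and FastQC 0.11.3. The sources used here give neither the annotation release nor the strand setting, so reads of overlapping and antisense genes may not be told apart. Groups were taken from the labels. A strain entry that the labels give alike for every library goes against their protocols and was not used. From the counts, edgeR 4.0.16 in R 4.3.3 (filterByExpr by group, TMM, glmQLFit and glmQLFTest on all 9 libraries, group only) gave log2 fold changes, standard errors and Benjamini-Hochberg adjusted p-values over the 19609 genes tested, called under 0.05, and 2-fold subsets were counted among the calls. The spread was shared by all libraries. The fit was tested on simulated data. Errors are SE for log2 fold changes and SD over 3 libraries for CPM. At these depths sampling error matters mainly for genes under about 1 CPM.

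Symbols and coordinates came from GENCODE M21 (29014 of 29229 IDs matched) and promoters from RefSeq on GRCm38.p6. The comparison and its 57 gene lists, with 1052 genes, were chosen with earlier results of these data known, and lists are described by counts and medians, with no test. Genes were named by a rule: anchor genes of each list, up to 4 called members with the largest fold change at 5 CPM or more, the called exceptions where these were 4 or fewer, and outside the lists the 15 protein-coding and 4 noncoding genes with the largest change each way at 10 CPM or more with no overlap between groups. The text leaves out some of those, and a few genes are not reported here. Alternatives were DESeq2 1.42.0, limma 3.58.1 (voom), scaling by library size alone, leaving out the ribosomal RNA locus genes, no filter and a minimum count of 50, a fit of 6 libraries, glmTreat, the replicate number as a block, and each library left out in turn.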

Additional observations from a re-analysis of the deposited data

Results flagged for a closer look

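Some genes were called in opposite directions in the 2 transplants against the same 3 naive libraries. Over all genes tested, 300 of those higher than naive in allogeneic cells (4.82%) were lower than naive in syngeneic cells. Of those lower in allogeneic cells, 160 (3.15%) were higher in syngeneic cells. Among the 237 genes named in the text, 13 were of this kind and were also called between allogeneic and syngeneic libraries (edgeR quasi-likelihood test). The log2 fold changes of that direct test are given here. Those higher than naive in allogeneic and lower than naive in syngeneic cells were the inhibitory receptor gene Pdcd1 (4.49), Cxcr6 (3.2), Icos (2.52), the natural killer receptor gene Klrb1c (2.27), Il2ra (2.19), the transcription factor gene Gata3 (1.81), the phosphatase gene Ubash3b (1.75) and Tox (1.31). Pdcd1 stood at 23.4 CPM in naive, 15.1 CPM in syngeneic and 339 CPM in allogeneic cells. Tox stood at 90.1 CPM in naive, 44.8 CPM in syngeneic and 111 CPM in allogeneic cells. Those lower than naive in allogeneic and higher in syngeneic cells were the interferon-induced protease gene Usp18 (-2.08), Myc (-1.18), the ribosome biogenesis gene Utp20 (-0.9), Klra4 (-6.29) and Klra8. Klra8 had no count in any allogeneic library, so its fitted value (-9.01) depends on the prior count. Against a floor of 3 counts over the group, it was at least 68.6-fold lower in allogeneic than in syngeneic cells (0.522 CPM). Myc stood at 137 CPM in naive, 200 CPM in syngeneic and 88.6 CPM in allogeneic cells. Klra4 and Klra8 belong to a family of near-identical genes and were under 1.5 CPM in every group mean. The part of the larger T-cell dose, the irradiation and the erythroid content of the syngeneic libraries in these differences was not tested.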

How the results depend on the processing

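Alternatives other than the test against a fold of 2 were compared gene by gene, and a gene that an alternative filtered out was not compared there. Of 237 genes tested against naive in the text, 221 kept their direction and their side of the threshold wherever they were tested. So did 21 of 22 tested against syngeneic cells. Of 60 list counts, 51 stayed within 1.5 times under the same alternatives, and of 57 list medians 32 moved by no more than the typical SE of a member. Medians near 0 are the least certain: with 1 library left out that of type I interferon genes ranged from -0.29 to -0.02, of cytokine receptors from -0.25 to -0.03, of the interferon gamma response from -0.1 to 0.0 and of ribosome biogenesis from -0.08 to 0.13. That of coreceptors and lineage factors turned to 0.01 without naive library 3 or allogeneic library 1, and of the Notch and Wnt list to 0.02 without allogeneic library 1. Ribosome biogenesis turned also with library sizes alone (-0.01) and the minimum count of 50 (-0.02). With that minimum count the platelet median was -0.45, but only 1 platelet gene was then tested, against 6 in the main fit. The number of genes called ranged from 9881 to 11802 with 1 library left out. The deviations of same-numbered naive and allogeneic libraries had correlations of -0.0647, 0.0877 and -0.0625. For naive and syngeneic libraries these were 0.0782, 0.265 and -0.0243, and for syngeneic and allogeneic libraries -0.118, -0.0904 and 0.0198. So few values cannot exclude a pairing by replicate number. With the number as a replicate block edgeR called 11226 genes. Scaling by library size alone moved the median over all genes from -0.0102 to -0.062. The leaving out of syngeneic libraries was added after the data were seen. Tested against a fold of 2 with glmTreat, 3770 genes were called, 2500 higher and 1270 lower, and 1875 between allogeneic and syngeneic libraries. Under that stricter test the members called higher became 0 for T-cell identity, 0 for coreceptors and lineage factors, 11 for homing, adhesion and egress, 2 for T-cell receptor signalling, 0 for MHC class I presentation, 5 for chromatin and DNA methylation enzymes, 3 for p53 targets, 8 for BCL2 family and caspases, 8 for glycolysis, 0 for the pentose phosphate pathway, 1 for the TCA cycle, 2 for nuclear genes of oxidative phosphorylation, 3 for fatty acid oxidation, 1 for sterol and fatty acid synthesis, 2 for the serine, glycine and folate cycle, 0 for nucleotide synthesis, 1 for amino acid transporters, 0 for ribosome biogenesis, 0 for the proteasome, 5 for the endoplasmic reticulum and unfolded protein response, 0 for cytosolic chaperones, 6 for antioxidant and thioredoxin genes, 0 for GIMAP GTPases, 2 for SOCS, STAT and JAK genes, 3 for B-cell markers and 1 for dendritic cell markers. Those called lower became 0 for T-cell identity, 0 for coreceptors and lineage factors, 4 for cytokine receptors, 5 for helper and regulatory lineage, 1 for immediate early genes, 1 for the type I interferon response, 1 for the interferon gamma response, 0 for mitochondrially encoded messenger RNAs, 0 for ribosome biogenesis, 1 for cytosolic ribosomal proteins, 1 for the Notch and Wnt pathway and 1 for nuclear long noncoding RNAs. In each list's smaller direction, those called higher became 0 for the type I interferon response, 4 for the interferon gamma response and 1 each for immediate early and Notch and Wnt genes. Those called lower became 3 for effector factors, 1 each for chromatin enzymes, sterol synthesis, p53 targets, G1 regulators, homing, fatty acid oxidation and MHC class II, and 0 for T-cell receptor signalling, the BCL2 family, SOCS, STAT and JAK genes, the folate cycle, the unfolded protein response, nucleotide synthesis, chaperones, antioxidants, amino acid transporters, GIMAP GTPases, glycolysis and inhibitory receptors. These falls come with the larger fold asked for. Genes of T-cell identity called higher became 2 with the fit of 6 libraries, DESeq2 or limma-voom and 1 to 2 with 1 library left out, and those called lower became 4 with library sizes alone or the minimum count of 50, 3 with 6 libraries and 1 to 2 with 1 library left out. Ribosome biogenesis genes called lower became 7 with library sizes alone. Notch and Wnt genes called lower became 3 with the minimum count of 50, where 9 were tested, against 14 in the main fit. B-cell markers called higher became 4 with that minimum count (8 tested, against 13 in the main fit) or limma-voom. Dendritic cell markers called higher became 1 with that minimum count or 6 libraries (5 tested in each, against 7). They became 1 with limma-voom and 1 to 4 with 1 library left out. Platelet markers called higher became 0 with that minimum count (1 tested, against 6) and 1 to 2 with 1 library left out. With 1 library left out, immediate early genes called lower numbered 4 to 7 and interferon gamma response genes 5 to 11. T-cell receptor signalling genes called lower became 7 and natural killer genes called lower 1 with that minimum count or 6 libraries. Only 5 natural killer genes were tested in each of these settings, against 7 in the main fit. Unfolded protein response genes called lower became 5 with that minimum count. Other counts of 0 to 2 in the smaller direction of a list moved by 1 under some alternatives. The difference in the log2 ratio of Cd8a to Cd4 ranged from -0.137 to 0.141 with 1 library left out and was 0.0972 with Cd8b1. The difference in the mitochondrial share was -0.172 percentage points without the ribosomal RNA locus. Genes that changed sign were all uncalled: B2m (-0.04 with library sizes alone, -0.02 without the ribosomal RNA locus genes, -0.05 with the minimum count of 50, -0.01 with 6 libraries), Isg15 (-0.01 with library sizes alone, -0.02 with the minimum count), and Rsad2 (-0.01 and -0.04 likewise, and -0.02 with the replicate block). With 1 library left out B2m ranged from -0.04 to 0.07, Cd4 from -0.13 to 0.02, Cd8a from -0.17 to 0.01, Il2 from -0.09 to 0.24, Isg15 from -0.11 to 0.14, Neat1 from -0.41 to 0.07, Rsad2 from -0.24 to 0.31 and Siglech from -0.32 to 0.08. The cause of the other moves was not tested. The depth limits only genes of very low level such as Klra8.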
